A study of Mus musculus with 8 samples.

Results

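The subject was the 6 genes of type IV collagen, Col4a1 to Col4a6, in RNA of cardiac fibroblasts with and without Lmna, the gene of the nuclear lamina proteins lamin A and C. They were the rows of these 6 symbols among the 18957 genes of the count files, and all 6 passed the filter on low counts, which left 13036 genes. The family was selected on the genotype difference itself, since Col4a3 and Col4a4 were already known to lie among the lowest fold changes of these data, so the genotype differences of the 6 chains are given as a description, with no p-value, and calls of the chains appear beside the background of all genes and support nothing.

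The 8 libraries came from 4 WT and 4 Pdgfra-Cre:LmnaF/F mice on a C57BL/6 (mixed) strain, aged 3 to 4 weeks. In the Pdgfra-Cre:LmnaF/F mice both copies of Lmna carry a floxed exon 2, and the Cre recombinase is driven by Pdgfra from a bacterial artificial chromosome (BAC) transgene; the WT mice are littermates with neither. Mice with the Cre transgene alone are not among the libraries, so an effect of the Cre and an effect of the deletion cannot be told apart, and the Pdgfra locus is also active in some cardiac myocytes during development. Ventricles were digested with collagenase, living cells that carried PDGFRA and none of the hematopoietic lineage markers were sorted by FACS, and their ribosome-depleted RNA was sequenced. Each of the 8 samples carries its own label and is taken as 1 mouse. Total counts were 2080555 in WT replicate 2 and 6345584 to 12502949 in the other libraries.

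Type IV collagen is the network-forming collagen of basement membranes, the sheets of matrix that underlie epithelia and endothelia and wrap muscle cells, fat cells and Schwann cells. Its chains assemble into heterotrimers inside the endoplasmic reticulum, and the trimers join end to end outside the cell. The chains of Col4a1 and Col4a2 form the trimer found in nearly every basement membrane. The chains of Col4a3, Col4a4 and Col4a5 join in another trimer, best known from the glomerulus of the kidney, where mutations of these genes cause Alport syndrome, and the chains of Col4a5 and Col4a6 join in a trimer found around smooth muscle and in some epithelia. The genes lie head to head, so that the partners of a pair start close together and are transcribed away from each other.

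In the mm10 build (GENCODE M21), Col4a1 (ENSMUSG00000031502.11) spans chr8:11198423-11312826 on the minus strand and Col4a2 (ENSMUSG00000031503.13) chr8:11312805-11449287 on the plus strand, and the genes overlap by 22 bases at their starts. Col4a4 (ENSMUSG00000067158.9) spans chr1:82448423-82586849 on the minus strand and Col4a3 (ENSMUSG00000079465.8) chr1:82586921-82722059 on the plus strand, with 71 bases between them. Col4a6 (ENSMUSG00000031273.16) spans chrX:141165403-141474076 on the minus strand and Col4a5 (ENSMUSG00000031274.16) chrX:141475385-141689234 on the plus strand, with 1308 bases between them. The stretches around these starts are shown because the partners of a pair start within or beside them. They were read from the RefSeq promoter table of the GRCm38.p6 assembly, written 5′ to 3′ on the strand named, and cut to the 22 shared bases for Col4a1 and Col4a2 and to bases outside annotated exons for the others. Capitals mark CCAAT or GGGCGG on either strand; TATAAA was searched too and was not in them.
Col4a1 and Col4a2, shared bases at chr8:11312805-11312826, plus strand: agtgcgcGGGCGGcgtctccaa
Col4a4 and Col4a3, bases between the genes at chr1:82586850-82586920, plus strand: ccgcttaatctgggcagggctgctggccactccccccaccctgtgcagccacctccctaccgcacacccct
Col4a5, upstream of the start at chrX:141475169-141475369, plus strand: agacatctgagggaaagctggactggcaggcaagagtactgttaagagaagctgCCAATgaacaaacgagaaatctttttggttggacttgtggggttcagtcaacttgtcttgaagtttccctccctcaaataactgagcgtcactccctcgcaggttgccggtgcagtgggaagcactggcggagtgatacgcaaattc
Col4a6, upstream of the start at chrX:141474096-141474326, minus strand: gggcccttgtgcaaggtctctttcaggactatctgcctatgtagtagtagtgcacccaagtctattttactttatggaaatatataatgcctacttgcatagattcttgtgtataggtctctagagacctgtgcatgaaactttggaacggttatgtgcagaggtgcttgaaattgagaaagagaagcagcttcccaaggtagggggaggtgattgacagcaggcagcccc

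The stretch between Col4a4 and Col4a3 was 69.0% G and C and held none of the 3 motifs. Over the full 300-base windows around the starts, the GC content was 74.0% for Col4a1, 73.7% for Col4a2, 63.3% for Col4a4, 52.7% for Col4a5 and 48.3% for Col4a6, beside a median of 52.7% over all windows. CCAAT was in the windows of Col4a1, Col4a2 and Col4a5 and in 37.4% of all 32851 windows, and GGGCGG was in those of Col4a1, Col4a2, Col4a5 and Col4a6 and in 35.7% of all windows. TATAAA, found in 13.6% of all windows, was in none of the 5. The windows of Col4a1 and Col4a2 overlap in part, and a match is a match of letters and not a bound site.

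Lmna, the targeted gene, was lower in each Pdgfra-Cre:LmnaF/F library than in each WT library. It had 331, 274, 483 and 374 CPM (the library-size scaled count, here with TMM factors) across WT replicates 1 to 4, against 126, 97.4, 130 and 90.4 CPM across Pdgfra-Cre:LmnaF/F replicates 1 to 4. The log2 fold change was -1.72 (SE 0.22, with an adjusted p of 0.00492 in the quasi-likelihood test of edgeR).

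The pair Col4a3 and Col4a4 held the lowest fold changes of the family, and the difference was of nearly the same size for both partners. Col4a4 had 150, 251, 273 and 184 CPM across WT replicates 1 to 4, against 50.9, 54.9, 41.6 and 24.8 CPM across Pdgfra-Cre:LmnaF/F replicates 1 to 4. The lowest WT library lay well above the highest Pdgfra-Cre:LmnaF/F library, and replicate 4 was the lowest of the latter. The means were 214 ± 57.4 and 43.0 ± 13.4 CPM (SD, n = 4), the log2 fold change was -2.31 with a standard error of 0.28, and the level was 4.97-fold lower. Its partner Col4a3 had 131, 95.1, 63.6 and 86.8 CPM in the WT libraries and 25.7, 24.5, 15.3 and 12.1 CPM in the Pdgfra-Cre:LmnaF/F libraries. These groups did not overlap either, and replicate 4 was again the lowest. The means were 94.0 ± 27.8 and 19.4 ± 6.72 CPM (SD, n = 4), the log2 fold change was -2.28 with a standard error of 0.30, and the level was 4.85-fold lower. The Col4a3 counts were between 133 and 248 in the Pdgfra-Cre:LmnaF/F libraries, so the transcript was lower there but not lost. An annotated transcript on the opposite strand, C430014B12Rik, overlaps Col4a3, and the strand setting of the counting is not given in the sources used here.

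**Figure D1:**
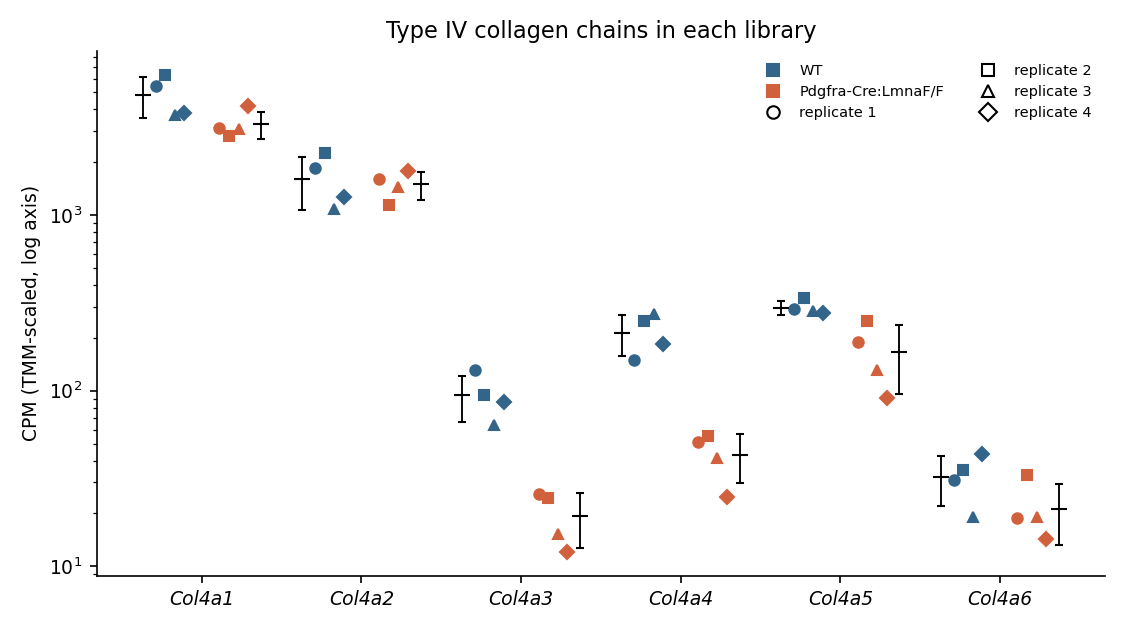
CPM of each type IV collagen chain in the 8 libraries on a log axis, with WT in blue, Pdgfra-Cre:LmnaF/F in orange, 1 symbol per replicate number, and bars for the mean ± SD of 4 libraries. The groups are apart for Col4a3, Col4a4 and Col4a5 and overlap for Col4a1, Col4a2 and Col4a6, and Pdgfra-Cre:LmnaF/F replicate 4 (orange diamond) is the lowest library for Col4a3 to Col4a6.

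Col4a5, which shares a trimer with the Col4a3 and Col4a4 chains, was lower by a smaller amount. It had 291, 337, 283 and 278 CPM in the WT libraries, the narrowest spread of the 6 chains, with a coefficient of variation of 9.01%. In the Pdgfra-Cre:LmnaF/F libraries it had 190, 251, 131 and 90.8 CPM, a coefficient of variation of 42.1%. The groups did not overlap, and the gap between the lowest WT and the highest Pdgfra-Cre:LmnaF/F library was small. The means were 297 ± 26.8 and 166 ± 69.8 CPM (SD, n = 4), and the log2 fold change was -0.84 with a standard error of 0.27, or 1.79-fold lower. Its head-to-head partner Col4a6 had 31.0, 35.2, 19.2 and 43.8 CPM in the WT and 18.8, 33.1, 19.0 and 14.3 CPM in the Pdgfra-Cre:LmnaF/F libraries. It had the fewest counts of the 6 chains in each WT library, from 70 in replicate 2 to 423 in replicate 4, while Col4a3 had fewer in Pdgfra-Cre:LmnaF/F replicates 2, 3 and 4, and its groups overlapped. The log2 fold change was -0.60 with a standard error of 0.34.

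Col4a1 and Col4a2 encode the chains of the ubiquitous trimer, and the groups of both overlapped. Col4a1 had 5414, 6319, 3738 and 3813 CPM in the WT and 3127, 2811, 3106 and 4162 CPM in the Pdgfra-Cre:LmnaF/F libraries. The groups overlapped through Pdgfra-Cre:LmnaF/F replicate 4, the highest of its group, which lay above WT replicates 3 and 4. The means were 4821 ± 1263 and 3301 ± 592 CPM (SD, n = 4), and the log2 fold change was -0.55 with a standard error of 0.24. Col4a2 had 1847, 2265, 1082 and 1265 CPM in the WT and 1601, 1147, 1450 and 1796 CPM in the Pdgfra-Cre:LmnaF/F libraries. Its groups lay across each other, and the log2 fold change was -0.11 with a standard error of 0.25. The sign for Col4a2 rested on WT replicate 2, the library with the fewest reads, without which the log2 fold change was 0.10. Antisense genes overlap Col4a1 (Gm15418) and Col4a2 (Gm15419) in the annotation, and reads from them could not be told apart without the strand setting.

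Of the 6 chains, 2 (Col4a3 and Col4a4) were past an adjusted p of 0.05 in the edgeR fit, beside 0.407% of all genes tested in either direction and 0.238% in the lower direction. For 3 chains (Col4a3, Col4a4 and Col4a5) the CPM of the groups did not overlap, beside 8.03% of all genes in either direction and 3.97% in the lower direction. Nothing is read from either count, since the family was selected on this contrast. Leaving out Pdgfra-Cre:LmnaF/F replicate 4 put Col4a1 among the chains without overlap, and leaving out replicate 2 put Col4a6 there, when 12.4% and 11.9% of all genes did not overlap. Replicate 4 also held far more RNA of cardiomyocyte genes than any other library, at a summed level of 5548 CPM over 7 markers beside 276 to 876 CPM in the other 3 libraries of its group and 688 to 993 CPM in the WT. Without it the log2 fold changes were -2.11 for Col4a3, -2.12 for Col4a4, -0.64 for Col4a5 and -0.45 for Col4a6. The part of the cardiomyocyte RNA in these differences was not tested.

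**Figure D2:**
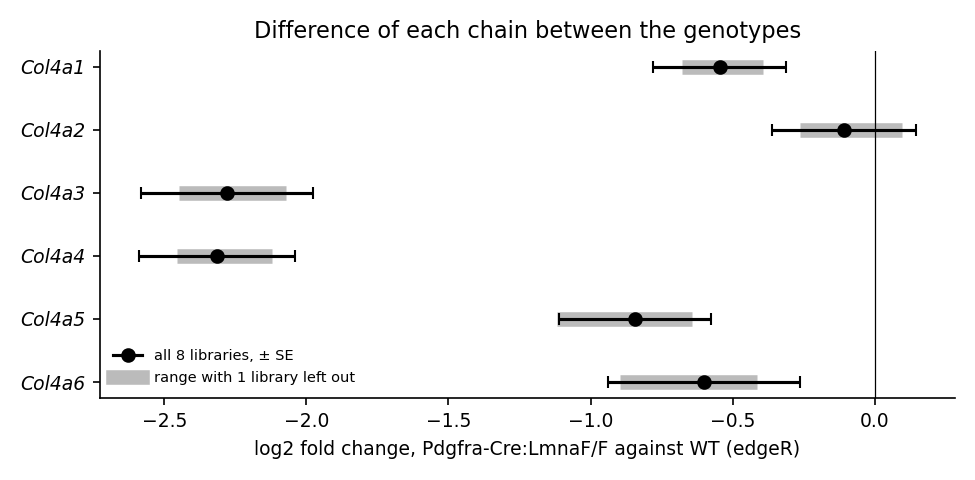
Log2 fold change of each chain, Pdgfra-Cre:LmnaF/F against WT, from edgeR with its standard error (points and bars) and the range when each library is left out in turn (grey). Col4a3 and Col4a4 stay between -2.45 and -2.07 and do not meet the ranges of the other 4 chains, and the range of Col4a2 spans 0.

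The partners of a pair can be compared within a library by the ratio of their counts, in which library size cancels. Col4a1 had 2.93, 2.79, 3.45 and 3.01 times the counts of Col4a2 in the WT libraries and 1.95, 2.45, 2.14 and 2.32 times in the Pdgfra-Cre:LmnaF/F libraries. The ratio was lower in each Pdgfra-Cre:LmnaF/F library than in each WT library, by 0.46 on the log2 scale, against SDs of 0.13 and 0.14 (n = 4). Thus the overlap seen for either gene alone was not seen in their ratio. Ratios of 799 head-to-head gene pairs with starts within 2 kb give the background, and 5.38% of them did not overlap between the genotypes. The shift of Col4a1 and Col4a2 was of ordinary size, larger than that of 52.3% of these pairs, whose median absolute shift was 0.42.

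The ratio of Col4a3 to Col4a4 overlapped between the genotypes and varied most among the WT libraries. It was 0.874, 0.380, 0.233 and 0.472 in the WT and 0.504, 0.447, 0.368 and 0.487 in the Pdgfra-Cre:LmnaF/F libraries, so the latter lay inside the WT range. The difference of the means was 0.04 on the log2 scale, with an SD of 0.79 in the WT and 0.20 in the Pdgfra-Cre:LmnaF/F libraries (n = 4). It moved between -0.27 and 0.37 when single libraries were left out, the ends coming without WT replicate 3, which had the lowest ratio, and without WT replicate 1, which had the highest. Col4a4 and Col4a3 were the 1 pair of the 799 with both genes past the threshold. They were also 1 of 4 pairs whose fold changes were the same way and beyond 1 on the log2 scale for both genes. The family was selected on these fold changes, and the background of pairs was added after the values were seen, so nothing is read from either count. The ratio of Col4a5 to Col4a6 was 9.37, 9.56, 14.8 and 6.35 in the WT and 10.1, 7.58, 6.90 and 6.34 in the Pdgfra-Cre:LmnaF/F libraries. These groups overlapped, with a difference of -0.33 on the log2 scale and SDs of 0.50 and 0.29 (n = 4). It was -0.12 without WT replicate 3 and -0.53 without WT replicate 4.

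**Figure D3:**
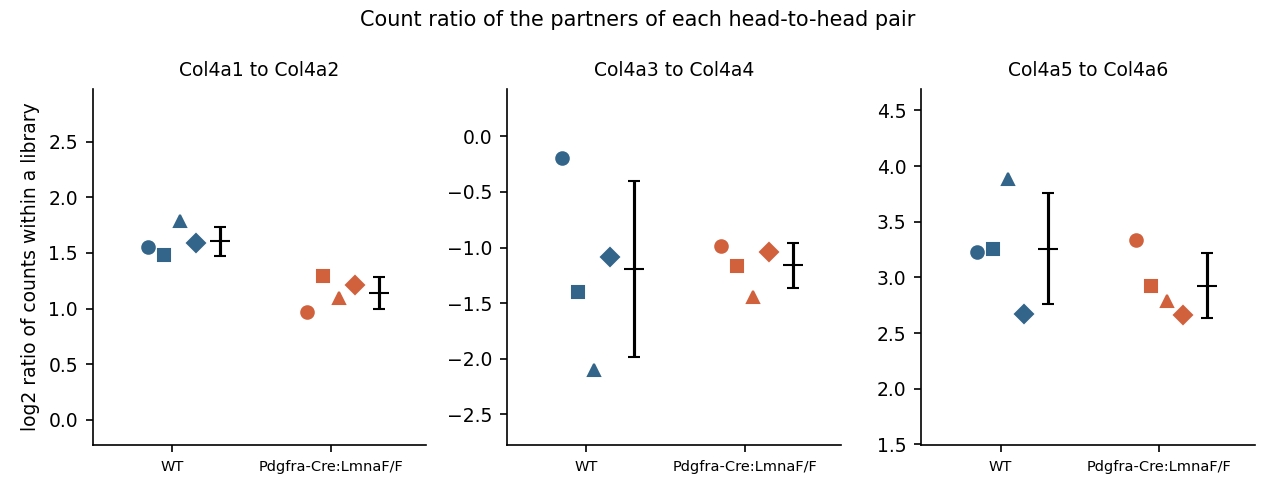
Log2 ratio of the counts of the partners of each head-to-head pair in each library, with 1 symbol per replicate number (circle 1, square 2, triangle 3, diamond 4), bars for the mean ± SD of 4 libraries, and vertical axes of equal span. The Col4a1 to Col4a2 ratio separates the groups, and the Col4a3 to Col4a4 ratio spreads from 0.233 to 0.874 (unlogged) in the WT.

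Levels of different chains were compared as CPM per kilobase of annotated exon, from 6.62 kb for Col4a2 to 10.6 kb for Col4a4. In the WT the order was Col4a1 at 646 ± 169, Col4a2 at 244 ± 82.0, Col4a5 at 44.2 ± 3.99, Col4a4 at 20.2 ± 5.40, Col4a3 at 9.44 ± 2.79 and Col4a6 at 4.05 ± 1.28 CPM per kb (SD, n = 4). No neighbours in this order overlapped among the WT libraries. In the Pdgfra-Cre:LmnaF/F libraries the levels were 442 ± 79.3 for Col4a1, 226 ± 41.3 for Col4a2, 24.6 ± 10.4 for Col4a5, 4.06 ± 1.26 for Col4a4, 2.67 ± 1.02 for Col4a6 and 1.95 ± 0.674 for Col4a3 CPM per kb (SD, n = 4). Col4a3 thus had the lowest mean level there and Col4a6 in the WT, but the Pdgfra-Cre:LmnaF/F values of Col4a4, Col4a6 and Col4a3 overlapped.

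Col4a1 and Col4a2 made up 91.6% ± 1.77 of the summed per-length level in the WT and 95.01% ± 2.51 in the Pdgfra-Cre:LmnaF/F libraries (SD, n = 4), and the groups overlapped. The share of Col4a3 and Col4a4 was 2.52%, 2.60%, 4.33% and 3.36% in the WT libraries and 1.05%, 1.27%, 0.823% and 0.419% in the Pdgfra-Cre:LmnaF/F libraries, with no overlap. Their means were 3.203% ± 0.843 and 0.893% ± 0.365 (SD, n = 4). Col4a5 and Col4a6 held 5.18% ± 0.990 and 4.10% ± 2.15 (SD, n = 4), with overlap. Within the family the share of Col4a2 was higher, at 24.9% ± 2.06 and 32.2% ± 2.40, and that of Col4a1 lower, at 66.8% ± 0.778 and 62.9% ± 2.38 (SD, n = 4), each without overlap. For Col4a1 the groups nearly met, at 65.92% in WT replicate 4 and 65.77% in Pdgfra-Cre:LmnaF/F replicate 4. The summed level was 968 ± 256 CPM per kb in the WT and 702 ± 106 CPM per kb in the Pdgfra-Cre:LmnaF/F libraries (SD, n = 4), and here the groups overlapped. In RNA of sorted cells, fewer cells that express a chain and less RNA of it per cell cannot be told apart.

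Likeness between genes was measured as Pearson r of log2 CPM over the 8 libraries, and again after the genotype means were taken off. The 8 points fall into the genotype groups, so that the first measure holds the genotype difference, and both are given as a description. Col4a1 and Col4a2 had r = 0.749, and 0.951 after the genotype means were taken off. Col4a2 then ranked 3 of 13035 genes by likeness to Col4a1, and Col4a1 ranked 10 by likeness to Col4a2, beside 260 and 254 by the levels. Col4a3 and Col4a4 had r = 0.917, and 0.244 after the genotype means were taken off, a value that pools unlike patterns. By the levels Col4a4 ranked 45 for Col4a3 and Col4a3 ranked 56 for Col4a4, and 4479 and 3708 with the genotype means taken off. In the WT the highest library for Col4a3, replicate 1, was the lowest for Col4a4, and replicate 3 was the reverse, whereas Pdgfra-Cre:LmnaF/F replicates 1 and 2 were the highest and replicate 4 the lowest for both genes. In contrast, Col4a5 had r = 0.748 with Col4a3 and 0.775 with Col4a4 after the genotype means were taken off, and 0.646 with its own partner Col4a6. Col4a6 then ranked 1237 for Col4a5 and Col4a5 ranked 1030 for Col4a6, beside 565 and 172 by the levels. By the levels, with the genotype means left in, the closest genes that are not chains were Hist1h2bf, Slc25a23 and Tnk2 for Col4a1 (r = 0.968 for the first), Pif1, Inpp5d and L1cam for Col4a2 (0.957), Wdr6, Pdlim7 and BC034090 for Col4a3 (0.991), Cdc42se1, Fgf18 and Duox1 for Col4a4 (0.994), Adprh, Zhx2 and Armcx2 for Col4a5 (0.982), and Pcdhgb5, Tsc22d1 and Prelid2 for Col4a6 (0.938). None of these 18 genes was past the threshold of the edgeR fit, beside 0.407% of all genes tested. Hist1h2bf, Pif1 and L1cam were at 0 counts in at least 1 library. With the genotype means taken off, the closest genes were Mia2, Inpp5d and Morc2a for Col4a1 and Gamt, Traf5 and Sele for Col4a3, while Pif1 and L1cam stayed among the 3 closest for Col4a2 and Adprh for Col4a5.

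Genes beside the pairs were examined next. Of 18 genes, the 3 tested genes nearest on either side of each pair, 0 were past an adjusted p of 0.05 in edgeR, 2 had an unadjusted p under 0.05, DESeq2 called 1 (Irs2), limma-voom called 0, and the median log2 fold change was 0.07. Over all genes tested, 0.407% were past the threshold in edgeR, 11.9% had an unadjusted p under 0.05, DESeq2 called 2.15%, limma-voom called 0.967%, 48.2% had a log2 fold change below 0, and the median was 0.02. The genes nearest to Col4a3 and Col4a4 were Rhbdd1 and Mff, a membrane protease and a mitochondrial fission factor. Rhbdd1 had 39.6 ± 7.28 and 33.7 ± 6.09 CPM (SD, n = 4) and a log2 fold change of -0.23 (SE 0.25), and Mff had 79.2 ± 17.1 and 70.8 ± 17.1 CPM (SD, n = 4) and a log2 fold change of -0.17 (SE 0.24). Irs1, the insulin receptor substrate further to the left, had a log2 fold change of -0.01 and Agfg1 to the right one of -0.01. Sphkap, a kinase-anchoring protein that starts 821 kb to the right, had 30.3, 22.6, 21.3 and 22.4 CPM in the WT and 4.45, 19.3, 1.38 and 2.92 CPM in the Pdgfra-Cre:LmnaF/F libraries. Its groups did not overlap, but replicate 2 was close to the WT, and the log2 fold change of -1.78 had a standard error of 0.63 and an edgeR adjusted p of 0.264. Without that library the log2 fold change was -3.04 and Sphkap was past the threshold (adjusted p = 0.0279 in edgeR). No other fit with a single library left out called any of the neighbours. Around Col4a1 and Col4a2, Irs2 had a log2 fold change of 0.95 (SE 0.29, adjusted p = 0.192 in edgeR), and around Col4a5 and Col4a6 the log2 fold changes of 6 genes lay between 0.08 (Kcne1l) and 0.43 (Atg4a).

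**Figure D4:**
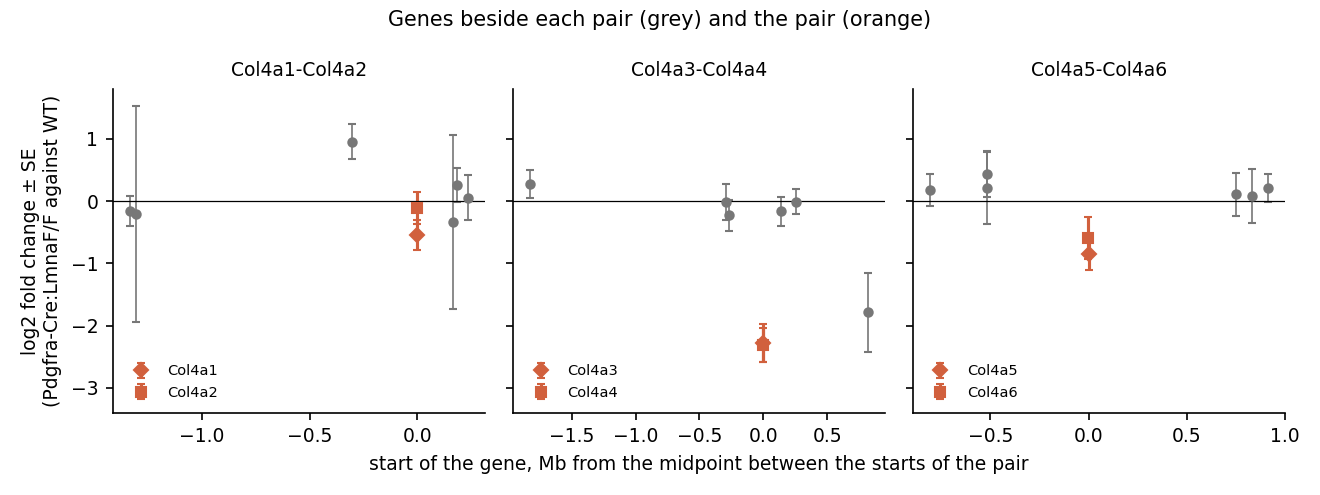
Log2 fold change ± SE (edgeR, Pdgfra-Cre:LmnaF/F against WT) of the 3 tested genes on each side of each pair (grey) and of the pair itself (orange), by the distance of their starts from the midpoint of the pair in Mb. Col4a3 and Col4a4 lie near -2.3, 5 of their 6 neighbours lie between -0.23 and 0.27, and Sphkap, the farthest to the right, lies at -1.78.

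Genes that fold and secrete the chains were next described. Prolyl and lysyl hydroxylases, galactosyltransferases, the collagen chaperone Serpinh1 (HSP47) and cargo receptors such as Mia3 (TANGO1) act on many collagens. The list also held general genes of the secretory path, such as Hspa5, Sec23a and Sec24d, and the transcription factor gene Creb3l2. Of its 22 genes, 1 fell past the threshold and 0 rose, where 0.238% of all genes fell and 0.407% changed in either direction. An unadjusted p under 0.05 was found for 8 of the 22, beside 11.9% of all genes. DESeq2 called 3 (P4ha2, Serpinh1 and Colgalt2), beside 2.15% of all genes, and limma-voom called 0. The gene that fell was P4ha2, a catalytic subunit of prolyl hydroxylase, with 52.6, 103, 101 and 63.9 CPM in the WT and 41.2, 25.3, 24.8 and 15.9 CPM in the Pdgfra-Cre:LmnaF/F libraries. Its groups did not overlap, and the log2 fold change was -1.58 (SE 0.31, adjusted p = 0.0446 in edgeR). The call of P4ha2 was lost with limma-voom (adjusted p = 0.0596). In edgeR it was also lost when WT replicate 2, 3 or 4 was left out (adjusted p = 0.137, 0.0917 and 0.0750) or Pdgfra-Cre:LmnaF/F replicate 2, 3 or 4 (adjusted p = 0.110, 0.161 and 0.0525), and the log2 fold change then lay between -1.67 and -1.39. The median of the list was -0.34, with 17 of 22 genes below 0, beside a median of 0.02 and 48.2% below 0 over all genes tested. Colgalt2, which glycosylates hydroxylysine, had a log2 fold change of -0.90 (adjusted p = 0.134 in edgeR and 0.0271 in DESeq2), and Crtap, part of the prolyl 3-hydroxylation complex, one of -0.66 (adjusted p = 0.194 in edgeR).

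The crosslinking list held 7 genes, among them Col4a3bp, a ceramide transfer protein that also binds the Col4a3 chain and is no crosslinking enzyme. In edgeR 0 of the 7 were past the threshold and 5 had an unadjusted p under 0.05, or 4 of 6 without Col4a3bp, beside 11.9% of all genes. DESeq2 called 2 (Pxdn and Loxl2), beside 2.15% of all genes, and limma-voom 0. The median log2 fold change was -0.31, and -0.42 without Col4a3bp. Pxdn, the peroxidasin that forms the sulfilimine bonds particular to type IV collagen, had 754, 703, 332 and 555 CPM in the WT and 370, 406, 271 and 161 CPM in the Pdgfra-Cre:LmnaF/F libraries. WT replicate 3 fell within the range of the other group, and the log2 fold change was -0.96 (SE 0.30, adjusted p = 0.208 in edgeR). Loxl2, a lysyl oxidase that acts on type IV collagen, had a log2 fold change of -0.88 (adjusted p = 0.160 in edgeR). Lox, the lysyl oxidase best known for fibrillar collagen and elastin, differed in the other direction, with 88.3, 154, 73.3 and 94.3 CPM in the WT and 115, 168, 373 and 826 CPM in the Pdgfra-Cre:LmnaF/F libraries. Its log2 fold change was 1.86 (SE 0.48, adjusted p = 0.125 in edgeR), and replicate 4 was the highest library. Lox was past the threshold without Pdgfra-Cre:LmnaF/F replicate 1 (log2 fold change 2.16, adjusted p = 0.0433 in edgeR). No other fit with a single library left out called it. With no filter on low counts edgeR called Lox (log2 fold change 1.84, adjusted p = 0.000343), Pxdn and Loxl2 (adjusted p = 0.0366 and 0.0418), when 274 genes were called.

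Of 30 laminins, nidogens, proteoglycans and other partners in basement membranes, 0 were past the threshold in edgeR, 12 had an unadjusted p under 0.05, DESeq2 called 3 (Col6a2, Col6a3 and Sparc) and limma-voom 2 (Col6a2 and Col6a3). Over all genes these shares were 0.407%, 11.9%, 2.15% and 0.967%. The median log2 fold change was -0.42, with 22 of 30 genes below 0, beside 0.02 and 48.2% over all genes. Lama1, Smoc1, Npnt and Frem2 were at 0 counts in at least 1 library, so the signs of their fold changes carry little. Col6a2 and Col6a3, chains of the type VI collagen that links basement membranes to the matrix around them, had log2 fold changes of -1.21 and -1.09 (adjusted p = 0.114 and 0.123 in edgeR), and Sparc, which binds type IV collagen, had one of -0.64 (adjusted p = 0.250 in edgeR). Col6a2 was past the threshold without WT replicate 3 (log2 fold change -1.43, adjusted p = 0.0307 in edgeR). No other fit with a single library left out called it. With no filter on low counts edgeR called Col6a2 and Col6a3 (adjusted p = 0.00819 and 0.0172), when 274 genes were called.

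Of 13 receptor genes, 1 (Itga11) fell past the threshold and 0 rose, where 0.238% of all genes fell and 0.407% changed in either direction. DESeq2 called 2 (Itga11 and Dag1), beside 2.15% of all genes, and limma-voom 1 (Itga11), beside 0.967%. Itga11, the integrin chain of a receptor for fibrillar collagen on fibroblasts, had 93.7, 110, 132 and 76.2 CPM in the WT and 19.2, 38.0, 8.52 and 27.2 CPM in the Pdgfra-Cre:LmnaF/F libraries, without overlap. Its log2 fold change was -2.14 (SE 0.36, adjusted p = 0.0232 in edgeR), and it was just outside the threshold without WT replicate 2 (log2 fold change -2.12, adjusted p = 0.0513 in edgeR). Dag1, the dystroglycan that ties laminin to cells, had a log2 fold change of -0.72 (adjusted p = 0.183 in edgeR and 0.0310 in DESeq2), and Itga2, an integrin chain that binds collagens, one of -1.04 (adjusted p = 0.478 in edgeR). The list had a median log2 fold change of -0.16, and 2 of its genes had an unadjusted p under 0.05, beside 11.9% of all genes.

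The 15 proteases and inhibitors that were tested had a median on the other side of 0, at 0.26, with 11 genes above 0. None was past the threshold in edgeR, 4 had an unadjusted p under 0.05, DESeq2 called 3 (Adamts1, Timp1 and Timp2) and limma-voom 1 (Adamts1), where the shares over all genes were 0.407%, 11.9%, 2.15% and 0.967%. Adamts1, a secreted metalloprotease, had 192, 216, 244 and 202 CPM in the WT and 315, 371, 539 and 350 CPM in the Pdgfra-Cre:LmnaF/F libraries, without overlap, and a log2 fold change of 0.88 (adjusted p = 0.0987 in edgeR). The metalloprotease inhibitors Timp1 and Timp2 had log2 fold changes of 1.63 and -0.72 (adjusted p = 0.192 and 0.202 in edgeR), and Timp1 was past the threshold without Pdgfra-Cre:LmnaF/F replicate 3 (log2 fold change 1.98, adjusted p = 0.0350 in edgeR). No other fit with a single library left out called Timp1. With no filter on low counts edgeR called Timp1 and Adamts1 (adjusted p = 0.00592 and 0.0321), when 274 genes were called. Of 14 regulators, among them TGF-beta signalling genes and Sp factors, 0 were past the threshold in edgeR, 2 had an unadjusted p under 0.05, DESeq2 called 1 (Tgfbr1) and limma-voom 0, and the median log2 fold change was 0.05, with the same shares over all genes as background. The TGF-beta receptor Tgfbr1 had a log2 fold change of 0.83, the ligand Tgfb3 one of -0.55 and the signal transducer Smad4 one of 0.28 (adjusted p = 0.138, 0.249 and 0.636 in edgeR).

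**Figure D5:**
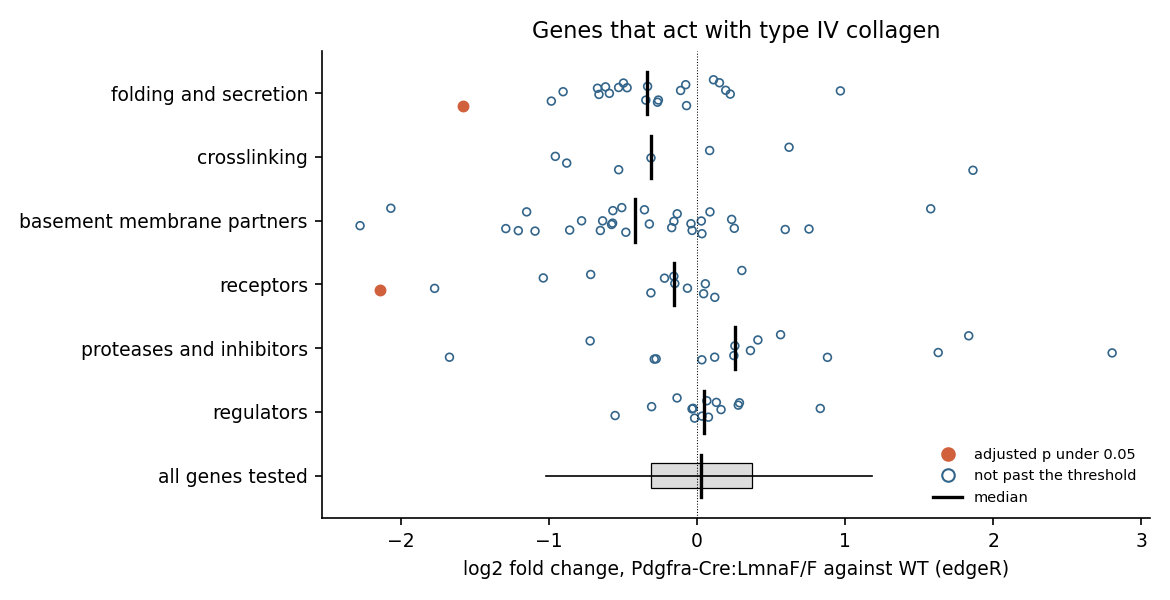
Log2 fold change of the tested genes of each list (edgeR, Pdgfra-Cre:LmnaF/F against WT), filled in orange where the adjusted p is under 0.05, with black bars at the medians, and for all 13036 genes tested a box from the 25th to the 75th percentile with a line from the 5th to the 95th. P4ha2 and Itga11 are the filled points, and the medians run from -0.42 for basement membrane partners to 0.26 for proteases and inhibitors.

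Other cells make type IV collagen too, and endothelial and mural cells are rich in Col4a1 and Col4a2. The fibroblast markers summed to 54804 to 77768 CPM in the WT and 65904 to 74028 CPM in the Pdgfra-Cre:LmnaF/F libraries, and Pdgfra itself lay between 1275 and 2761 CPM in the 8 libraries. The 7 endothelial markers summed to 768, 557, 738 and 743 CPM in the WT and 450, 429, 455 and 565 CPM in the Pdgfra-Cre:LmnaF/F libraries, and 0 of the 7 had a higher mean in the latter. This difference had the direction of that of Col4a1, and its part in the Col4a1 difference was not tested; the exact two-sided permutation test gave p = 0.0571 and 0.3 after adjustment over 7 lists, where the smallest p the design allows is 0.0286. WT replicate 2, the library with the fewest counts, was the highest for Col4a1 and Col4a2 and had the lowest endothelial sum of its group. This is 1 library, and a link between the values was not tested. The mural markers summed to 571 to 783 CPM in the WT and 424 to 811 CPM in the Pdgfra-Cre:LmnaF/F libraries (exact permutation p = 0.6, adjusted 0.7). Cardiomyocyte markers (exact permutation p = 0.714, adjusted 0.714) are given above. Immune markers summed to 16.0 to 33.7 and 16.96 to 111 CPM (exact permutation p = 0.171, adjusted 0.3), and epicardial markers to 11.02 to 45.8 and 6.67 to 15.7 CPM (exact permutation p = 0.0857, adjusted 0.3). The fibroblast sum had an exact permutation p of 0.4 (adjusted 0.56). Among the defining markers, Ptprc was at 0 in Pdgfra-Cre:LmnaF/F replicate 2, while Pecam1 (17.5 to 68.2 CPM), Rgs5 (59.1 to 204 CPM), Tnnt2 (10.2 to 429 CPM) and Upk3b (1.27 to 10.4 CPM) were found in every library.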

How the data were processed

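RNA of FACS-sorted, PDGFRA-positive and lineage-negative ventricular cells was sequenced as 8 libraries, 4 WT and 4 Pdgfra-Cre:LmnaF/F, which were grouped by their labels. The authors made strand-specific, ribosome-depleted libraries from RNA with a RIN above 8, mapped 150 bp paired-end reads with HISAT2 (mm10), and obtained counts per GENCODE gene with featureCounts. The deposited values are whole-number counts per gene symbol, without scaling; RUV normalization and DESeq2 are named for the authors' own comparison, and the counts hold no RUV factor. The GENCODE release is not given in the sources used here, and loci were taken from release M21, which matched 18918 of 18957 symbols. Nothing states that the samples of a group came from separate mice other than the separate labels, so p-values measure the spread between these samples.

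The genotypes were compared in edgeR 4.0.16 (R 4.3.3) by the quasi-likelihood test, after filterByExpr and TMM scaling, with no covariate, and p was adjusted over 13036 genes (Benjamini-Hochberg, threshold 0.05). Of these genes 53 were past it, 22 higher and 31 lower, 1550 had an unadjusted p under 0.05, and the median log2 fold change was 0.02. CPM are counts over TMM-scaled library sizes. Sums of markers were compared by exact permutation over libraries (scipy 1.17.1). Log2 CPM for likeness used a prior count of 2. Alternatives were DESeq2 1.42.0, limma-voom (limma 3.58.1) with quality weights, RLE factors, no filter, at least 10 counts in every library, 1 RUVr factor, a replicate block, and each library left out in turn. For the ratios 1 count was added, for levels per length the longest transcript was used, for likeness a prior count of 0.5, and for the markers total counts. The depth covers counting error only. The procedure was tested on simulated counts.

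The members and lists were chosen with earlier results of these data known. The named genes are the 6 chains, Lmna, per list the genes past the threshold or else those with the lowest p up to 3, the neighbours, the 3 genes most like each chain, and the defining marker of each cell type, and 1 of the 7 marker lists is not reported here. The background of 799 head-to-head pairs (starts within 2 kb, counts above 0 in every library of both genes) and the overlap counts without single libraries were added after the values were seen. Col4a3 has no entry in the promoter table.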

Additional observations from a re-analysis of the deposited data

Results flagged for a closer look

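Of 124 groups of 4 values examined, 9 held a library whose gap to the nearest of the others exceeded the 95% critical value of Dixon's test for 4 samples, and chance alone gives about 1 in 20. Among the values of the chains it was 1, the share of Col4a6 in the per-length total, which was highest in WT replicate 4 at 0.709% beside 0.361% in the nearest library. No CPM of a chain, count ratio of a pair or share of a pair was among them.

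The summed cardiomyocyte markers stood at 5548 CPM in Pdgfra-Cre:LmnaF/F replicate 4, far above the 876 CPM of the next library of that group, and the same library was the lowest for Col4a3, Col4a4, Col4a5 and Col4a6; the part of the one in the other was not tested. The summed endothelial markers were lowest in WT replicate 2, at 556.5 CPM beside 738 CPM in the nearest library of its group. WT replicate 2 was also the highest library for Col4a1 and Col4a2, and a link between these values was not tested.

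Among the genes that act with type IV collagen, Sparc was lowest in Pdgfra-Cre:LmnaF/F replicate 3, at 2617 CPM beside 4120 CPM. In the WT, Colgalt2 was highest in replicate 2 at 187 CPM beside 152 CPM, Timp1 in replicate 2 at 38.2 CPM beside 19.9 CPM, and Tgfbr1 in replicate 3 at 100.8 CPM beside 76.2 CPM. Of the neighbours, Sphkap was highest in WT replicate 1 at 30.3 CPM beside 22.6 CPM, and Acsl4 in WT replicate 3 at 77.2 CPM beside 53.0 CPM.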

How the results depend on the processing

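Of the 90 fold changes of the chains in 15 alternative fits, 1 changed sign (Col4a2 without WT replicate 2, 0.10). All 90 lay within 1 SD of the reported ones, the SD of log2 CPM between libraries of a group. That SD ran from 0.32 for Col4a1 to 0.51 for Col4a6 and was larger than the standard error of each chain. Leaving out 1 of 4 libraries can hardly move a mean that far, so no stability is read from this. With libraries left out in turn, the log2 fold changes ran from -0.68 to -0.39 for Col4a1, -0.26 to 0.10 for Col4a2, -2.45 to -2.07 for Col4a3, -2.45 to -2.12 for Col4a4, -1.12 to -0.64 for Col4a5 and -0.90 to -0.41 for Col4a6.

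The count over all genes was 53, and 309 with DESeq2, 126 with limma-voom, 274 with no filter, 81 with 1 RUVr factor and 13 to 76 with single libraries left out, with 13 without WT replicate 4, 17 and 26 without Pdgfra-Cre:LmnaF/F replicates 3 and 2, and 24 without WT replicate 1 or 2. The lists moved too; the cause was not tested. With DESeq2 the calls were 3 for folding and secretion, 2 for crosslinking, 3 for basement membrane partners, 2 for receptors, 3 for proteases and inhibitors, 1 for regulators and 1 for neighbours. With limma-voom they were 0 for folding and secretion, 2 for basement membrane partners and 1 for proteases and inhibitors. With no filter they were 2 for folding and secretion, 3 for crosslinking, 2 for basement membrane partners, 2 for proteases and inhibitors and 1 for neighbours. With single libraries left out they ran from 0 to 1 for folding and secretion, crosslinking, basement membrane partners, receptors, proteases and inhibitors, and neighbours. The added calls came without Pdgfra-Cre:LmnaF/F replicate 1 (Lox), 2 (Sphkap) or 3 (Timp1) or WT replicate 3 (Col6a2).

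With the replicate number as a block, 36 genes were called and the folding and secretion list had 0 calls (P4ha2, adjusted p = 0.0742 in edgeR). The labels do not say what the replicate numbers stand for. The deviations of same-numbered libraries had correlations between -0.03 and 0.04, and libraries of unlike numbers lay in the same range. Such correlations cannot show whether same-numbered libraries share a litter or a preparation, so whether the block belongs in the fit stays unknown. The lowest depth was that of WT replicate 2, with 2080555 counts in all and 70 for Col4a6.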
